A study of Homo sapiens with 40 samples.

Results

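Oxidative phosphorylation genes encode the respiratory chain and ATP synthase of mitochondria. Here they were the autosomal protein-coding genes of GENCODE 44 whose symbols begin with NDUFA, NDUFB, NDUFC, NDUFS, NDUFV, UQCR, ATP5 or COX4 to COX8, together with SDHA, SDHB, SDHC and SDHD. This naming rule gave 95 of the 19111 autosomal protein-coding genes, and 3 further genes with such symbols lie on the X chromosome and were not counted. Each gene was represented by its H3K27ac peak and its CTCF peak with the highest mean count within 2 kb of a start site. An H3K27ac peak was found for 88 of the 95 genes and a CTCF peak for 45.

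The cells were EndoC-βH3, a line of human beta-like cells derived from fetal pancreas, immortalized with hTERT and SV40 large T antigen and carrying an inducible CreER that can excise the immortalizing genes. Large T antigen holds the tumour suppressors p53 and Rb inactive. Senescent cells had received 4-hydroxytamoxifen for 3 weeks and non-senescent control cells had not, and the labels give both as wild type. Acetylation of histone H3 at lysine 27 (H3K27ac), found where promoters and enhancers are in use, and binding of CTCF, which anchors chromatin loops, were each profiled by ChIP-seq in 3 senescent and 3 non-senescent libraries, with an input library for each. The same line was used throughout, so p-values measure the spread between libraries of 1 line, which may be technical where cultures were not separate. The tables hold 1 mean normalized read count per peak over the 6 libraries, the log2 fold change (senescent over non-senescent) with its standard error (SE), and an adjusted p-value, and no value per library. In bulk chromatin, fewer cells carrying a mark and less of the mark per cell cannot be told apart.

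The respiratory chain passes electrons from NADH (complex I) or succinate (complex II) through complex III to oxygen at complex IV. ATP synthase uses the proton gradient so built to make ATP. In beta cells this ATP closes the potassium channel that couples glucose metabolism to insulin release. Most subunits are made in every cell type, but several complex IV subunits exist as a widely expressed form and a form restricted to muscle, lung or testis.

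All 10 beta-cell marker genes examined had an H3K27ac peak at a start site, among them INS at 230 and PDX1 at 493 mean counts per kb of peak. Of 4 markers of other islet cells, SST (50.3 per kb) and HHEX (85.3 per kb) had a peak. Of 6 acinar and duct markers CPA1 (298 per kb) and KRT19 (122 per kb) did. Of 7 stromal, endothelial and immune markers CD68 (238 per kb) did. CPA1 and CD68 thus stood above INS. No peak was found at GCG, PPY, PRSS1, COL1A1, PECAM1 or PTPRC. Over both whole tables, 4876 H3K27ac peaks were gained and 6767 lost of 51489, and 1180 CTCF peaks were gained and 1690 lost of 51457. The direction of the tables was checked on CDKN1A, the p53 target that arrests the cell cycle, whose H3K27ac log2 fold change was 2.50 ± 0.16 (SE), and on the proliferation gene MKI67, at -2.29 ± 0.14 (SE).

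To see which DNA the members have in common, promoter sequences were taken from RefSeq (GRCh38.p14, 250 bases before to 50 after the start), where 75 of the 95 genes matched by symbol. The unmatched genes included ATP5F1B, ATP5F1D, ATP5MC3, ATP5MF, ATP5MF-PTCD1, ATP5MGL, COX4I2, COX6C, COX7A1, NDUFA4, NDUFA4L2, NDUFAF6, NDUFB5, NDUFB9, NDUFC2, NDUFS5, SDHC, UQCRB and UQCRHL. The 250 bases before the start are shown for ATP5F1E, NDUFB4 and NDUFS3, which were among the genes with the largest gains of acetylation, for ATP5MC2 and COX6A1, which were among those with the largest declines, and for ATP5PF, which holds 3 of the motifs that were frequent among the members. They are written in the direction of transcription, and capitals mark matches on either strand to the NRF1, ETS, YY1, ERR, CRE, E-box, E2F, CCAAT or TATA letters given in the next paragraph. In order, they lie at chr20:59032336-59032585, chr3:120596086-120596335, chr11:47578824-47579073, chr12:53676084-53676333, chr12:120437863-120438112 and chr21:25735055-25735304, on the minus strand for ATP5F1E, ATP5MC2 and ATP5PF and on the plus strand for the others.
ATP5F1E: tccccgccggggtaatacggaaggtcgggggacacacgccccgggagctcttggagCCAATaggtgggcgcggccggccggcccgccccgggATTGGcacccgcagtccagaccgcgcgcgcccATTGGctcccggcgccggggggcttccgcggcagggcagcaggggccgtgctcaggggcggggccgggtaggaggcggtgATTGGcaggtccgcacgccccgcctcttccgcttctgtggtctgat
NDUFB4: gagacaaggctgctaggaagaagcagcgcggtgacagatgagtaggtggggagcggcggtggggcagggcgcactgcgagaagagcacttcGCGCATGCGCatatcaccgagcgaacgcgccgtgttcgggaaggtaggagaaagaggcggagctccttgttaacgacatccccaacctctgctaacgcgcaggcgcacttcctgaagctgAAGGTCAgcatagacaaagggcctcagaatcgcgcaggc
NDUFS3: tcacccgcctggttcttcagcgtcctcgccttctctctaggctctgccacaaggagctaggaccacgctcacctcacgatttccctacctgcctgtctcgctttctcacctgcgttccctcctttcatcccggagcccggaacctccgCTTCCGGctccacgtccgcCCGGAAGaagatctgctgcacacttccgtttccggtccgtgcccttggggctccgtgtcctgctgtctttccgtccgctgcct
ATP5MC2: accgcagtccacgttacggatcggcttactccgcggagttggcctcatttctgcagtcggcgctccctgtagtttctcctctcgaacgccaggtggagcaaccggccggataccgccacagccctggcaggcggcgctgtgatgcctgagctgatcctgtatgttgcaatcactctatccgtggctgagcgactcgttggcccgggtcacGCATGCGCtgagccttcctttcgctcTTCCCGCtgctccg
COX6A1: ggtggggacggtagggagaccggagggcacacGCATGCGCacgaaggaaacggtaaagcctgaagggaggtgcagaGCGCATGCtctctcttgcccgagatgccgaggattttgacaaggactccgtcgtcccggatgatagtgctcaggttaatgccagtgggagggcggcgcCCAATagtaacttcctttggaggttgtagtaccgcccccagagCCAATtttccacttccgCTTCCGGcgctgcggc
ATP5PF: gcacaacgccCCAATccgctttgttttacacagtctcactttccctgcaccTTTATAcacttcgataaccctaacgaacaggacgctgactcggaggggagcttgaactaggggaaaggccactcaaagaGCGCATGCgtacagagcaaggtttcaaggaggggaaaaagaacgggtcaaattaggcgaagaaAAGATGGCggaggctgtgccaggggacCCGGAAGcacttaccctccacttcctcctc

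Letters of 4 factors with known roles at nuclear genes of mitochondrial proteins were more frequent in the members' promoters than in others. The comparison was among genes with an H3K27ac peak at a start site. A matched promoter need not lie under the chosen peak, and those of NDUFA5, COX7A2, COX7A2L and ATP5F1A, for example, lie outside it. The NRF1 site (GCATGCGC) was present in 21.1% of the 71 matched members with an H3K27ac peak and in 5.52% of 10120 other genes with one. The YY1 site (AAGATGGC) was present in 15.5% against 5.33%, and the motif of the oestrogen-related receptors, or ERR (AAGGTCA), in 12.7% against 2.59%. The ETS site (CCGGAAG), which GABP can bind, was present in 28.2% against 19.3%. The E2F site (TTCCCGC) was found in 16.9% against 10.4% and the CRE (TGACGTCA) in 7.04% against 3.38%. The GC box (GGGCGG) went the other way, at 59.2% against 69.6%, as did CCAAT at 32.4% against 36.9%. The E-box (CACGTG) at 11.3% against 9.93%, the hypoxia response core (ACGTG), which every E-box also holds, at 25.4% against 26.2%, and the TATA box (TATAAA) at 7.04% against 5.76% lay close together, the last pair of motifs having been added after the data were seen. Over the promoters of all 14541 other matched genes, with or without a peak, the NRF1 site was in 4.08%, the YY1 site in 3.93%, the ERR motif in 3.12%, the ETS site in 14.5%, the E2F site in 8.75%, the CRE in 2.68%, the GC box in 59.7%, the CCAAT box in 36.3%, the E-box in 8.75%, the hypoxia response core in 23.6% and the TATA box in 9.72%. These shares were not tested.

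**Figure D1:**
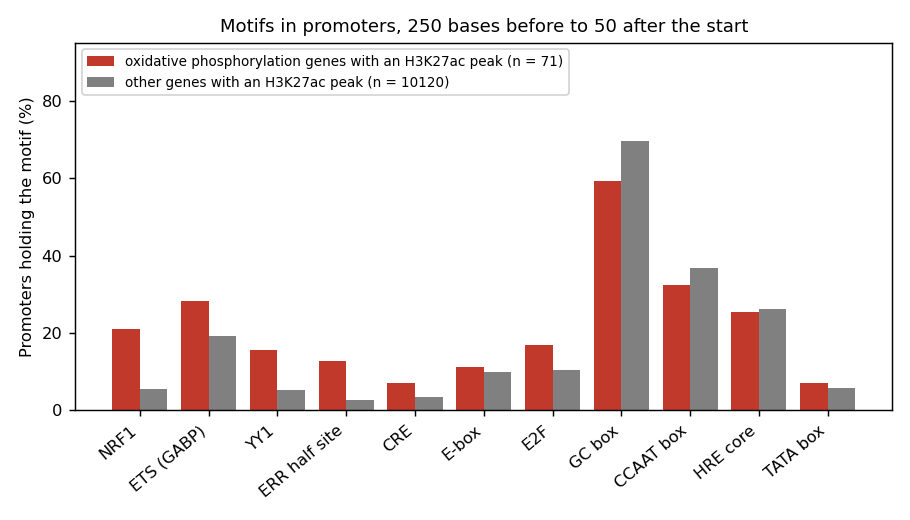
Share of promoters (%, 250 bases before to 50 after the start, both strands) that hold each motif, for 71 oxidative phosphorylation genes (red bars) and 10120 other genes (grey bars) with an H3K27ac peak at a start site. The red bar is highest above the grey one for NRF1, at 21.1% against 5.52%.

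Median H3K27ac log2 fold changes with and without a motif, over the matched members with a peak, were set side by side without a test. The fold change is that of the chosen peak, which need not cover the promoter that was searched. At ATP5F1A the promoter, with an E2F site, lies under a second peak (-0.82 ± 0.18, SE), whereas the chosen peak stood at 0.18. They were lower with the YY1 site (-0.00 against 0.13), the ERR motif (0.01 against 0.13), the CRE (-0.00 against 0.12), the E-box (-0.00 against 0.13), the E2F site (0.05 against 0.13), the hypoxia response core (0.05 against 0.13), the NRF1 site (0.08 against 0.13), the GC box (0.10 against 0.13) and the TATA box (0.08 against 0.12). They were higher with the ETS site (0.17 against 0.09) and the CCAAT box (0.13 against 0.09). The sets overlap and are small, from 5 members with the CRE or the TATA box to 42 with the GC box. The members' promoters were less rich in GC than those of other genes with a peak, at a median of 61.0% against 65.3%. Another difference lay in their arrangement. A protein-coding gene started on the opposite strand within 1 kb upstream of the canonical start of 27 of the 95 members (28.4%), against 9.60% of all autosomal protein-coding genes. The latter include genes without an H3K27ac peak, whereas all 27 had one. ATP5PF, which encodes a stalk subunit of ATP synthase, is one of the 27, and its partner is GABPA, which encodes a subunit of GABP. The H3K27ac peak that both share had a log2 fold change of 0.08 ± 0.07 (SE, adjusted p = 0.40, as deposited from DESeq2).

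At the 1 peak chosen per gene, H3K27ac of oxidative phosphorylation genes changed little in size with senescence, with a single large exception. Of 9 further H3K27ac peaks near the members' starts, 3 were past both limits for a loss, at NDUFAF6 and ATP5F1A. Calls of gain and loss needed a fold change of more than 1.5 together with an adjusted p below 0.05. No member was called gained, against 3.17% of the 12635 autosomal protein-coding genes with a peak. NDUFA4L2 was the 1 member of 88 called lost, against 9.01% of those genes. Calls were also few among other housekeeping genes. By the same limits, 0 were gained and 1 lost of 83 genes of cytosolic ribosomal proteins. For mitochondrial ribosomal proteins, 0 were gained and 3 lost of 78, and for proteasome subunits 0 and 2 of 37. At unadjusted p under 0.05 and any fold, 33 members were higher and 6 lower. The 87 other members ranged from -0.53 (ATP5MC2) to 0.54 (ATP5F1E) on the log2 scale, which is 1.44-fold lower to 1.45-fold higher. The 95% interval of the fold change lay wholly within 1.5-fold in either direction for 77 of the 88, a share that was not counted over all genes.

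Smaller changes that passed the test without the limit on fold were mostly rises. At an adjusted p under 0.05 and any fold, 27 of the 88 members (30.7%) were higher in senescent cells, against 24.7% of all genes with a peak. Lower acetylation was found for 6 members (6.82%), against 19.5% of all genes. The median log2 fold change of the members was 0.13, with the middle 50% of members between -0.03 and 0.23. The median over all genes was 0.04, with the middle 50% between -0.20 and 0.22. Peaks with more reads tended to have higher fold changes across genes, so other genes in the members' middle range of signal were set beside all 88 members. The members themselves were not limited to that range. Over the 4783 other genes with a mean count within the members' middle 50% (329 to 932), the median was 0.06, 25.9% were higher and 17.5% lower. Among the members, the rank correlation of fold change with mean count was 0.31 over 86 distinct peaks of the same libraries, and among 12547 other genes it was 0.29.

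**Figure D2:**
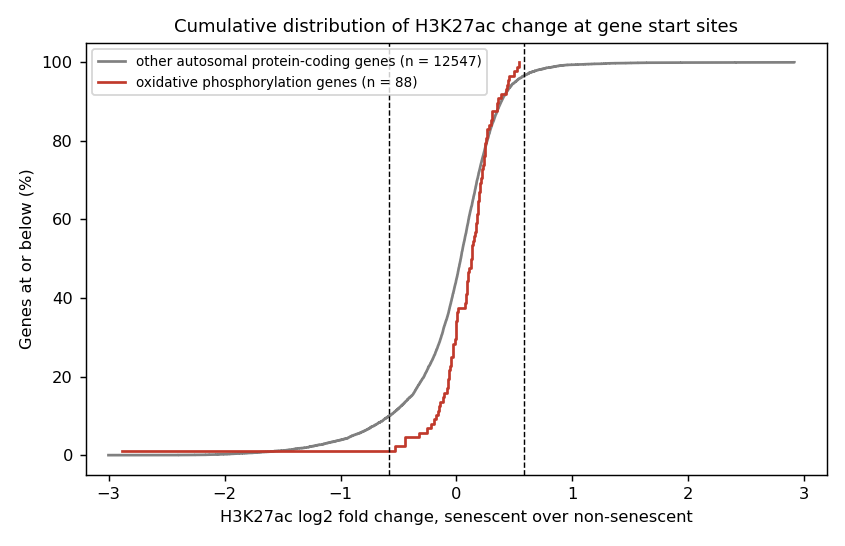
Cumulative share of genes (%) against the H3K27ac log2 fold change at start sites, for 88 oxidative phosphorylation genes (red) and 12547 other autosomal protein-coding genes (grey), with dashed lines at a fold change of 1.5 in either direction. Apart from NDUFA4L2 at -2.89, the red curve stays between the dashed lines.

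NDUFA4L2 encodes a paralogue of NDUFA4 that is known as a target of hypoxia-inducible factors. Its H3K27ac peak fell by 2.89 on the log2 scale, with an SE of 0.31, which was 7.41-fold lower in senescent cells (adjusted p = 1.9e-18, deposited from DESeq2). Of the 12635 genes with a peak, 1 had a lower fold change. The peak, chr12:57239578-57240746 (hg38), was also the weakest among the members at 57.4 mean counts, or 49.1 per kb. It covers the upstream start site of NDUFA4L2, which is 3588 bp from the canonical one, and lies 2474 bp from the canonical start, so with the canonical start alone no member was called lost. The H3K27ac peak next to it, chr12:57228823-57231443, lies at the start of SHMT2, which encodes a mitochondrial enzyme of serine metabolism. It fell by 1.88 on the log2 scale, with an SE of 0.14, or 3.67-fold (adjusted p = 6.3e-37, DESeq2).

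NDUFA4 itself, first counted with complex I and now known as a subunit of complex IV, moved the other way. Its peak held 1571 mean counts (379 per kb), and its log2 fold change was 0.36 ± 0.08 (SE, adjusted p = 1.4e-05, DESeq2), or 1.28-fold higher.

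**Figure D3:**
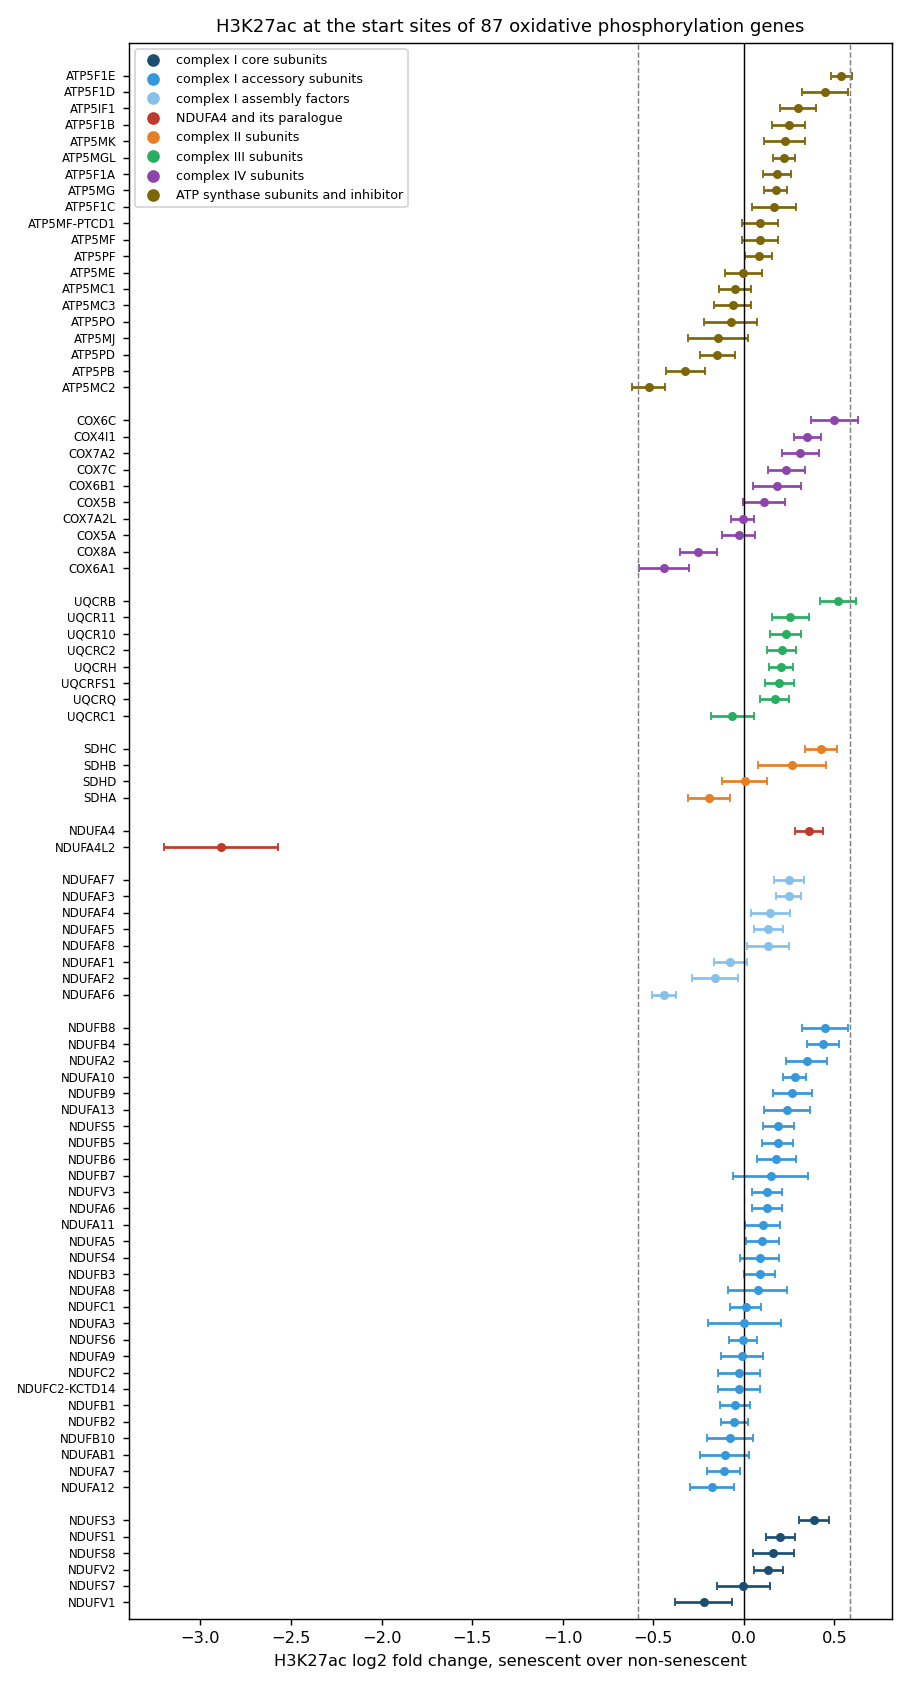
H3K27ac log2 fold change (senescent over non-senescent) of 87 of the 88 members with a peak, ordered within each complex, with bars of 1 SE and dashed lines at a fold change of 1.5 in either direction. NDUFA4L2, at -2.89, stands outside the dashed lines, and the other 86 points lie between them.

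Complex I takes up electrons from NADH. Of the 7 core subunits of complex I in the list, which carry its iron-sulphur clusters and NADH site, 3 were higher at an adjusted p under 0.05 and 0 lower, and the median log2 fold change was 0.16. NDUFS3 rose by 0.39 ± 0.08 (SE, adjusted p = 1.5e-05, DESeq2). NDUFV1, which binds NADH, had a log2 fold change of -0.22 ± 0.16 (SE) that did not pass the test. Over all genes with a peak, 24.7% were higher and 19.5% lower. Of the 29 accessory subunits, which surround the core, 5 (17.2%) were higher and 0 lower, with a median of 0.09. They were NDUFB8 (0.45 ± 0.13), NDUFB4 (0.44 ± 0.09), NDUFA2 (0.35 ± 0.11), NDUFA10 (0.28 ± 0.07) and NDUFB9 (0.27 ± 0.11), each as log2 fold change ± SE. NDUFA10 had the most H3K27ac per length of all 88 members, at 609 mean counts per kb. Among the accessory subunits without a change that passed, NDUFB7 had a log2 fold change of 0.15 ± 0.20 (SE), NDUFV3 0.13 ± 0.08 (SE) and NDUFS6 -0.01 ± 0.08 (SE).

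Assembly factors help build complex I without staying in it. Of 8 with NDUFAF names, NDUFAF3 (0.25 ± 0.07, SE) and NDUFAF7 (0.25 ± 0.08, SE) rose (25%) and NDUFAF6 fell (12.5%). Over all genes with a peak, 24.7% were higher and 19.5% lower. NDUFAF6 had 4 H3K27ac peaks within 2 kb of its several start sites. The one with the most reads, which also lies within 2 kb of a start of TP53INP1, a p53 target gene, held 2604 mean counts and stood at -0.44 ± 0.07 on the log2 scale (SE, adjusted p = 9.3e-10, DESeq2). The peaks at other NDUFAF6 starts had log2 fold changes of -1.29 ± 0.11 (SE, 2.44-fold lower) and -0.90 ± 0.07 (SE, 1.86-fold lower), past both limits for a loss, whereas the peak at the canonical start stood at -0.54 ± 0.11 (SE). NDUFAF8 and NDUFAF5 had log2 fold changes of 0.13 ± 0.12 (SE) and 0.14 ± 0.08 (SE), neither of which passed, although NDUFAF8 did with the GC trend removed (0.31, adjusted p = 0.025, from the deposited SE). Among all 9 further H3K27ac peaks near the members' starts, 1 other was past the limits, at a second peak of ATP5F1A (-0.82 ± 0.18, SE), whose chosen peak had a log2 fold change of 0.18 ± 0.08 (SE, adjusted p = 0.051, DESeq2).

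Complex II is succinate dehydrogenase, shared by the respiratory chain and the TCA cycle. Of its 4 subunits, SDHC, a membrane anchor, rose by 0.43 ± 0.09 (SE, adjusted p = 1.2e-05, DESeq2) and had the most H3K27ac per length, at 396 mean counts per kb. The other membrane anchor, SDHD, had a log2 fold change of 0.01 ± 0.12 (SE), the iron-sulphur subunit SDHB 0.26 ± 0.19 (SE) and the flavoprotein SDHA -0.19 ± 0.12 (SE), none of which passed. Thus 1 of the 4 was higher and 0 lower, against 24.7% and 19.5% of all genes with a peak. SDHB had 76.0 mean counts per kb, near the low end of the members, and its interval reached from -0.10 to 0.63.

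Complex III, which passes electrons from ubiquinol to cytochrome c, was the complex with most of its members higher. Of its 8 genes with a peak, 6 were higher at an adjusted p under 0.05 and 0 lower, against 24.7% and 19.5% of all genes with a peak. The median log2 fold change was 0.21. UQCRB, the ubiquinone-binding protein, rose by 0.52 ± 0.10 (SE, adjusted p = 1.4e-06, DESeq2), or 1.43-fold. The others were UQCR11 (0.26 ± 0.10), UQCR10 (0.23 ± 0.09), UQCRC2 (0.21 ± 0.08), UQCRH (0.21 ± 0.07) and UQCRFS1 (0.20 ± 0.08), each with its SE. UQCRFS1, the Rieske iron-sulphur protein, had the most H3K27ac per length in the complex (401 mean counts per kb). With the GC trend of the H3K27ac fold changes removed, an alternative added after the data were seen, UQCRC2 (adjusted p = 0.052, from the deposited SE) and UQCRFS1 (adjusted p = 0.079) no longer passed, which left 4 of the 8. The core protein UQCRC1 stood at -0.06 ± 0.12 (SE). Differences between complexes were not tested.

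In complex IV, cytochrome c oxidase, 3 of the 10 genes with a peak rose (30%) and 2 fell (20%), against 24.7% and 19.5% of all genes. COX6C rose by 0.50 ± 0.13 (SE, adjusted p = 5.9e-04, DESeq2), COX4I1 by 0.35 ± 0.07 (SE) and COX7A2 by 0.31 ± 0.10 (SE). COX6A1 fell, with a log2 fold change of -0.44 ± 0.14 (SE, adjusted p = 0.0054, DESeq2), and so did COX8A, at -0.25 ± 0.10 (SE, adjusted p = 0.035, DESeq2), though COX8A did not pass with the GC trend removed (adjusted p = 0.067, from the deposited SE). COX4I1, the widely expressed form of subunit 4, had the most H3K27ac per length among them, at 289 mean counts per kb.

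All 6 of the members of complex IV without an H3K27ac peak are forms restricted to certain tissues. COX6A2 and COX7A1 are the heart and muscle forms, COX4I2 is the lung form, and COX6B2, COX7B2 and COX8C are testis forms. Their nearest H3K27ac peaks lay 29.2 kb (COX6A2), 10.2 kb (COX7A1), 23036 bp (COX4I2), 12.4 kb (COX6B2), 8191 bp (COX7B2) and 12.8 kb (COX8C) from a start site. The widely expressed partners COX6A1, COX7A2, COX4I1, COX6B1 and COX8A all had a peak over a start site, at 93.3, 235, 289, 124 and 208 mean counts per kb. The 1 other member without a peak was UQCRHL, an intronless copy of UQCRH, 23.8 kb from the nearest peak, whereas UQCRH held 358 mean counts per kb. In all, 92.6% of the members had an H3K27ac peak, against 66.1% of autosomal protein-coding genes.

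ATP synthase is the last enzyme of the pathway. Of its 20 genes, 6 rose (30%) and 2 fell (10%), against 24.7% and 19.5% of all genes with a peak. ATP5F1E, the epsilon subunit, rose by 0.54 ± 0.06 (SE, adjusted p = 1.2e-18, DESeq2), or 1.45-fold. Its peak, chr20:59024403-59043981, is 19.6 kb wide and lies within 2 kb of a start of PRELID3B. It held 10504 mean counts, the most of any member, or 537 per kb. It was the 1 member peak that overlapped a listed enhancer, in the list for non-senescent cells, and none overlapped one in the list for senescent cells. The authors listed enhancers only outside promoters, so little overlap with peaks chosen at start sites was set in advance. The share over all genes was not counted. ATP5F1D, the delta subunit, rose by 0.45 ± 0.13 (SE), and with the GC trend removed stood at 0.64, past the limit for a gain. ATP5IF1, which inhibits the enzyme, rose by 0.30 ± 0.10 (SE) and ATP5F1B, the catalytic beta subunit, by 0.25 ± 0.09 (SE). ATP5MG rose by 0.17 ± 0.06 (SE). ATP5MGL rose by 0.22 ± 0.06 (SE), but its peak lay 1595 bp from its start site, within 2 kb of a start of CYB5R3, and was the only chosen H3K27ac peak that did not cover a start of its gene.

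The c subunits form the rotating ring of ATP synthase, and ATP5MC1, ATP5MC2 and ATP5MC3 encode the same mature protein. ATP5MC2 (chr12:53674226-53678062) fell, with a log2 fold change of -0.53 ± 0.09 (SE, adjusted p = 1.6e-07, DESeq2), which was 1.44-fold lower. ATP5MC1 (-0.05 ± 0.09, SE) and ATP5MC3 (-0.06 ± 0.10, SE) did not pass the test. ATP5PB, part of the peripheral stalk, fell, at -0.32 ± 0.11 (SE, adjusted p = 0.0096, DESeq2), and its peak also lies within 2 kb of a start of WDR77.

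Levels per length of peak ranged from 49.1 (NDUFA4L2) to 609 (NDUFA10) mean counts per kb, with a median of 195 over the members and 187 over the other genes. ATP5F1E (537) came next below NDUFA10, and above NDUFA4L2 came NDUFA3 (68.9) and SDHB (76.0). The tables give no spread for these levels, so neighbours in the order could not be tested. The median peak of a member was 2782 bp wide and held 582 mean counts, beside 2990 bp and 613 over the other genes.

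**Figure D4:**
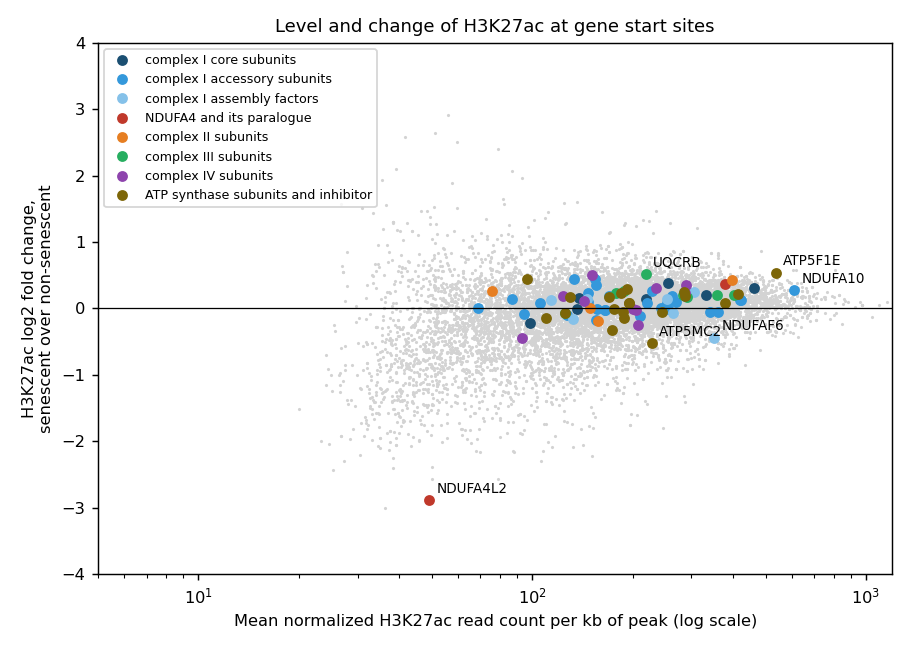
H3K27ac log2 fold change against the mean normalized read count per kb of peak (log axis), for 88 oxidative phosphorylation genes coloured by complex and 12547 other genes in grey. NDUFA4L2 is lowest on both axes among the members, at 49.1 per kb and -2.89, and NDUFA10 and ATP5F1E lie farthest to the right.

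Start sites of other genes within 2 kb were common among the members, but their share over all genes was not counted. The chosen H3K27ac peak also lay within 2 kb of another protein-coding gene's start for 45 of the 88 members, so that its change cannot be assigned to 1 gene. The median log2 fold change was 0.10 over these 45 and 0.13 over the other 43, and 15 and 12 of them were higher at an adjusted p under 0.05. NDUFC2 and NDUFC2-KCTD14 share 1 H3K27ac peak (log2 fold change -0.03 ± 0.12, SE), and ATP5MF and ATP5MF-PTCD1 share another (0.09 ± 0.10, SE), so the 88 members had 86 distinct peaks. Over all autosomal protein-coding genes, the 12635 with a peak had 10872 distinct chosen peaks. None of the senescence-specific Rb regions lay within 2 kb of a start site of the 95 members, against 1.60% of all autosomal protein-coding genes.

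Related lists chosen for comparison gave mostly smaller medians. Over all genes with a peak the median was 0.04, with 24.7% higher and 19.5% lower. The median H3K27ac log2 fold change was 0.11 over 17 genes of the TCA cycle and pyruvate dehydrogenase, of which 5 were higher and 1 lower at an adjusted p under 0.05. The lower one was DLAT, a pyruvate dehydrogenase subunit, at -0.69 ± 0.11 (SE). Of 11 complex I assembly factors with other names, 2 were higher and 0 lower (median 0.01). Of 14 assembly factors of complexes II, III and V, 3 were higher and 2 lower (median 0.09), with SDHAF3 called gained (0.60 ± 0.10, SE) and ATPAF2 called lost (-0.77 ± 0.13, SE). Of 24 cytochrome c oxidase assembly factors, 5 were higher and 3 lower (median 0.04), and SURF1 was called gained (0.76 ± 0.06, SE). Of 13 genes of coenzyme Q synthesis and cytochrome c, 3 were higher and 1 lower (median 0.05), and of 6 carriers of ADP, ATP and phosphate and mitochondrial channels, 3 were higher and 1 lower (median 0.20).

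Regulators of mitochondrial biogenesis had a median of 0.02 over 14 genes with a peak, with 1 higher and 3 lower. PPARGC1A, the coactivator PGC-1α that drives this programme, was called lost, at -1.12 ± 0.24 (SE, adjusted p = 2.8e-05, DESeq2), on a peak of 71.8 mean counts. NRF1 had a log2 fold change of -0.16 ± 0.08 (SE), TFAM, which maintains mitochondrial DNA, 0.03 ± 0.09 (SE) and ESRRA 0.18 ± 0.08 (SE), none of which passed. Other large assemblies of housekeeping genes stood lower than the oxidative phosphorylation genes. The median was 0.03 over 78 genes of mitochondrial ribosomal proteins (18 higher, 10 lower), 0.01 over 83 of cytosolic ribosomal proteins (13 higher, 11 lower) and 0.04 over 37 of proteasome subunits (6 higher, 7 lower). The shares over all genes with a peak were 24.7% higher and 19.5% lower.

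No member's CTCF peak was called gained or lost. For CTCF the calls needed a fold change of more than 1.5 and an adjusted p below 0.2, and 40 of the 45 peaks had an adjusted p. The shares among 7676 autosomal protein-coding genes with such a value were 0.586% gained and 5.52% lost. At an unadjusted p under 0.05, 1 member was higher and 4 were lower. At an adjusted p under 0.2 and any fold, 0 members were higher, against 1.49% of all genes, and 4 were lower, against 11.0%. The median log2 fold change was -0.15 over the members and -0.17 over all genes with a CTCF peak. CTCF fold changes fell with the GC content of peaks, with a rank correlation of -0.35 over all CTCF peaks. With that trend removed, the median was 0.03 over the members and 0.00 over all genes, and none of the 4 passed.

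The 4 members with lower CTCF were NDUFA4L2, ATP5ME, NDUFV1 and NDUFB7. NDUFA4L2 had 3 CTCF peaks near its starts, and the one with the most reads (chr12:57238260-57240870, 656 mean counts) stood at -0.47 ± 0.11 on the log2 scale (SE, adjusted p = 0.0053, DESeq2), or 1.38-fold lower. This peak overlaps the lost H3K27ac peak. With the GC trend removed its log2 fold change was -0.17 (adjusted p = 0.57, from the deposited SE). ATP5ME, an accessory subunit of ATP synthase, stood at -0.39 ± 0.12 (SE, adjusted p = 0.048, DESeq2), while its H3K27ac log2 fold change was -0.00 ± 0.10 (SE). NDUFV1 stood at -0.53 ± 0.19 (SE, adjusted p = 0.090, DESeq2) and NDUFB7 at -0.37 ± 0.17 (SE, adjusted p = 0.19, DESeq2). The next smallest adjusted p-values belonged to COX6A1 (0.31 ± 0.15, SE, adjusted p = 0.24) and NDUFA10 (0.32 ± 0.17, SE, adjusted p = 0.30), both positive and short of the threshold in DESeq2's test.

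**Figure D5:**
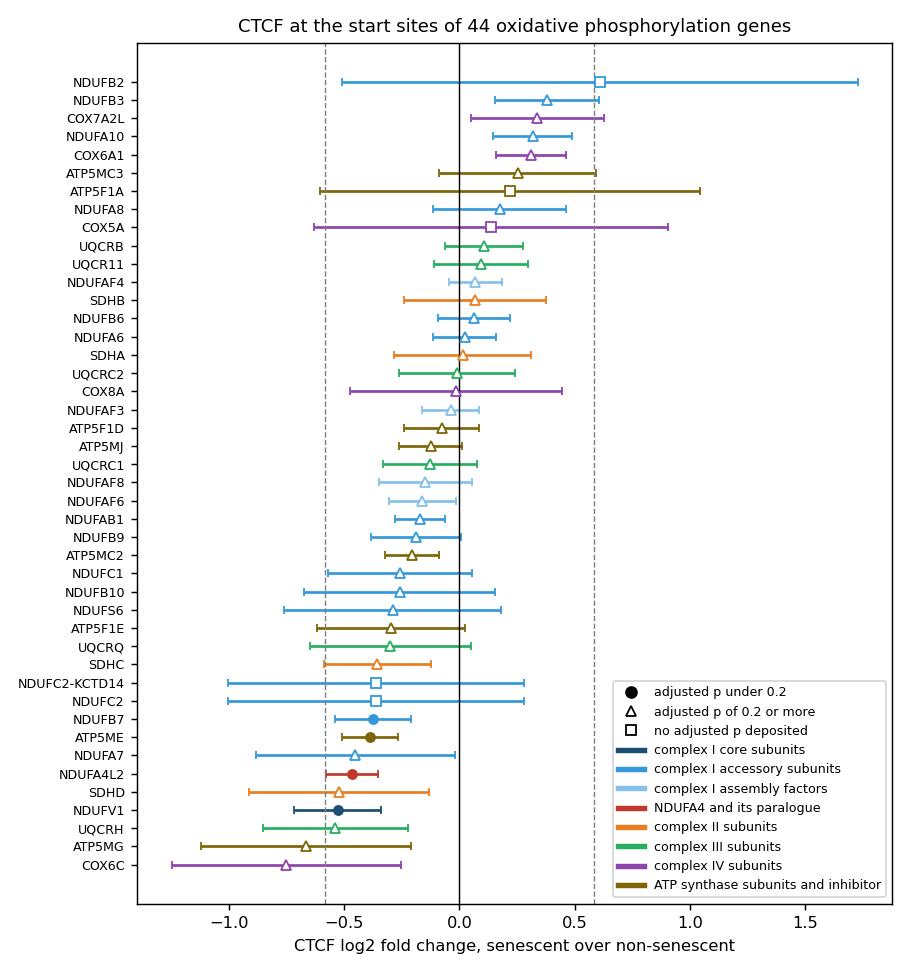
CTCF log2 fold change (senescent over non-senescent) of 44 of the 45 members with a CTCF peak, with bars of 1 SE and dashed lines at a fold change of 1.5 in either direction. The 4 filled circles mark an adjusted p under 0.2 and all lie to the left of 0, open triangles mark a higher adjusted p, and 5 open squares mark peaks without one.

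The strength of CTCF at these starts was close to that at other genes, with a median of 88.5 mean counts over the members and 86.3 over all genes with a CTCF peak, and 47.4% of the members and 47.7% of all genes had such a peak. Of the 45 chosen peaks, 23 covered a start site of the member. Mean counts ranged from 4.84 (NDUFB2) to 656 (NDUFA4L2), and the 95% interval lay within 1.5-fold for 15 of the 45, and the median SE over the members was 0.25. The chosen peaks farthest from a start were those of NDUFAF8 and NDUFS6, both at 1717 bp, and the nearest peaks just outside 2 kb were those of NDUFV3 (2309 bp) and NDUFAF5 (2488 bp). The 12-base core of the CTCF motif, allowing 1 mismatch, occurred in 12 of the 45 peaks (26.7%) and in 37.3% of the 8227 CTCF peaks chosen over all genes, which vary in length. Sites of 30 bases around the core, in the direction of the motif and with the core in capitals, are shown for the 2 members with an exact match (COX6A1 and NDUFB6) and for NDUFA4L2 and NDUFV1, which had lower CTCF. All 4 were annotated as intronic, but those of NDUFA4L2 and NDUFV1 lie upstream of the canonical start, at -2124 and -305 bases from it. The 4 sites lie at chr12:120439829-120439858, chr9:32572450-32572479, chr12:57239213-57239242 and chr11:67606616-67606645 (hg38), on the plus strand for COX6A1 and NDUFV1 and on the minus strand for NDUFB6 and NDUFA4L2.
COX6A1: ggcctgtacCCACTAGGTGGCagtagtacc
NDUFB6: agtatccaaCCACCAGAGGGCacagccagc
NDUFA4L2: gccgctcggCCTCCAGGGGGCgcccgagcc
NDUFV1: caccaggacCCAGCAGAAGGCgacatgcga

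The fold changes of the chosen H3K27ac and CTCF peaks showed no common trend across the members. Of the 45 genes with both peaks, 10 were positive in both, 14 negative in both, 15 positive in H3K27ac and negative in CTCF, and 6 the reverse. The rank correlation was -0.01 over 44 distinct CTCF peaks, as a description of these libraries. The paired peaks of a gene need not share a locus, and those of NDUFAF6, NDUFA10 and SDHB, for example, do not overlap. Signs and correlation were not counted over all genes with both peaks. Whether the members differ from other genes in this respect was therefore not tested. NDUFA4L2 was the 1 member with an adjusted p under 0.05 in both marks and the same sign.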

How the data were processed

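The data describe H3K27ac and CTCF ChIP-seq in 3 senescent and 3 non-senescent libraries each, of 40 libraries in all with inputs, H3K4me1 and Rb. Trim Galore and Bowtie2 (hg38) were the authors' tools for trimming and alignment, and H3K27ac duplicates were removed with Picard. Peaks were called over input, by HOMER for H3K27ac and by MACS2 for CTCF, and the authors compared their read counts with DESeq2. The methods also describe a filter of CTCF peaks for the CTCF motif, which was not checked on the table with the same motif model. Versions of these tools are not given in the sources used here. The signal deposited for each peak is its size-factor-scaled read count averaged over the 6 libraries. Also deposited by the authors are a log2 fold change and the score columns (its SE and the Wald statistic, which equals their quotient in all rows) together with the deposited p-value and adjusted p-value. An adjusted p-value was absent for 11972 of 51457 CTCF peaks, which stayed uncalled. The region lists of enhancers and Rb hold positions alone.

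No model was refitted, since the tables hold no values per library. The depth per library is therefore unknown, and the sum of the deposited means was 19239499 (H3K27ac) or 6136424 (CTCF). Because scaling by size factors centres most peaks at no change, a shift common to the whole genome would not show. Thresholds were the study's. Start sites were those of protein-coding transcripts of GENCODE 44, and overlap meant at least 1 bp. All 24 chromosome names matched hg38, and 0 regions ended beyond their chromosome. Intervals are the log2 fold change ± 1.96 SE. The GC trend was the median log2 fold change in 20 bins of GC content among peaks away from start sites and listed enhancers (and, for CTCF, from H3K27ac peaks). Scripts used Python 3 with pandas, SciPy and pysam, and were tested on simulated data. Ribosomal lists were drawn by symbol, without the RPS6K kinases. The members and lists were chosen with earlier results of these data known, and lists were described by counts and medians without a test.

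Genes named were those called, the 8 highest and 8 lowest H3K27ac fold changes with an adjusted p under 0.05 (of which 6 were negative), the 6 smallest CTCF adjusted p-values, the highest H3K27ac level per kb in each complex, the members without an H3K27ac peak, those overlapping an enhancer or Rb region, and those nearest the 2 kb limit. 1 gene that this rule names is not reported here. Other members are named as examples within their complex. Alternatives changed the thresholds, the peak chosen, the members counted, the centring and the GC trend.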

Additional observations from a re-analysis of the deposited data

How the results depend on the processing

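No paired analysis was possible because the tables hold no values per library, and leaving out each replicate was not run for the same reason. Without the limit on fold change, 27 members were higher and 6 lower in H3K27ac, and 4 were lower in CTCF. With the canonical start site alone, 0 members were called lost in H3K27ac, since the NDUFA4L2 peak lies near its upstream start. Every other change of threshold, window or peak left the 4 counts of calls at 1 lost member for H3K27ac and 0 for the rest. Where several peaks covered start sites, the choice of the nearest peak fell again on the one with the most reads. That setting could therefore not bring in the further peaks of NDUFAF6 and ATP5F1A that were past the limits. The median H3K27ac log2 fold change stayed between 0.10 and 0.15 over all alternatives, including, added after the data were seen, those without NDUFA4L2, without shared peaks and with the GC trend removed. The CTCF median lay between -0.17 and -0.06 except when centred on the median of promoter peaks or with the GC trend removed, each of which gave 0.03.

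With the GC trend removed, 7 values of named members that had not passed the test turned positive, namely those of H3K27ac at ATP5ME (0.19) and NDUFS6 (0.0039) and of CTCF at ATP5F1D (0.22), COX8A (0.19), NDUFAF6 (0.048), NDUFAF8 (0.12) and NDUFS6 (0.0074). For H3K27ac it brought ATP5F1D to 0.64, so that 1 member was called gained. At any fold it left 27 members higher and 5 lower, ending 3 calls (COX8A, UQCRC2 and UQCRFS1, adjusted p = 0.067, 0.052 and 0.079, from the deposited SE) and beginning 2 (NDUFAF8, 0.31, adjusted p = 0.025, and NDUFB5, 0.20, adjusted p = 0.045). A test against a fold change of 1.5 left NDUFA4L2 alone past the threshold (H3K27ac, adjusted p = 4.9e-11, from the deposited SE). CTCF peaks of 5 members had no adjusted p.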
